A study of Mus musculus with 8 samples.

Results

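The immediate early genes followed through CITE-seq libraries of the embryonic mouse aorta were Fos, Fosb, Jun, Junb, Jund, Egr1, Egr2, Ier2, Atf3 and Dusp1. These 10 rows, of 28014 genes in the count table, were listed by name and were proposed with results of these data known. They were followed across all 10 annotated cell types and both genotypes, and compared between cell types of the same library so that a level shared by a whole library could be told from a level of a cell type. CITE-seq counts RNA molecules (as unique molecular identifiers, UMIs) and antibody tags in the same single cell. CD31+ cells were sorted from the aorta-gonad-mesonephros (AGM), the region in which the first hematopoietic stem and progenitor cells form, of mouse embryos at E10.5. The WT group had 5 libraries, labelled strain C57BL/6 and genotype WT. In its knockout crosses the paper also uses WT for littermates without Cre. The second group, called Mff_Cre here, had 3 libraries labelled Meis1-flox/VE-Cre and Meis1-knockout, in which a Cre driven by the VE-cadherin promoter deletes an exon of Meis1 in endothelium and in the blood cells that descend from it. Each library was a pool of 2 to 5 embryos, and no treatment was given to either group. Tissue was dissociated with collagenase and sorted before capture, so all libraries share that handling.

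Immediate early genes are switched on within minutes of a growth factor, cytokine or stress signal, without new protein synthesis, through factors such as SRF with its ternary complex partners and CREB. Fos and Jun family proteins pair to form the transcription factor AP-1, and Egr1 and Egr2 are zinc finger factors that act in differentiation of blood and nerve cells. Atf3 encodes a stress-induced partner of the Jun proteins, Dusp1 encodes a phosphatase that switches off MAP kinases, and Ier2 encodes a small nuclear protein. Enzymatic dissociation is a known inducer of these genes in single-cell work, and they also have steady roles in endothelium, myeloid cells and megakaryocytes.

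The promoters are shown for 5 members: Fos, Junb and Jun, which moved with the library, and Atf3 and Dusp1, whose highest mean levels were in aEC and pre-HE. Each line is the 150 bases before the transcription start from RefSeq (GRCm38.p6), 5′ to 3′ on the strand of the gene. Capitals mark TGACG on either strand (the short CRE motif, which lies inside the full site TGACGTCA) and TATAAA; the Jun stretch holds neither.
Fos, chr12:85473740-85473889, plus strand: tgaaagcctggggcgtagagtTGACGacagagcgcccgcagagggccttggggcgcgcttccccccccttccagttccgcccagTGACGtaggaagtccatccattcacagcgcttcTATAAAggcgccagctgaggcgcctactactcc
Jun, chr4:95052223-95052372, minus strand: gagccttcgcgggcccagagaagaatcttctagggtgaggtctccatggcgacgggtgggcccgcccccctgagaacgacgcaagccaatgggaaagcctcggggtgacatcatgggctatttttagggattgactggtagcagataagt
Junb, chr8:84978749-84978898, minus strand: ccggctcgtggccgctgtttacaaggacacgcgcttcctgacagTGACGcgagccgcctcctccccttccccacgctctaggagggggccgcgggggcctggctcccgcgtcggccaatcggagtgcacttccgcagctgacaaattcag
Atf3, chr1:191183334-191183483, minus strand: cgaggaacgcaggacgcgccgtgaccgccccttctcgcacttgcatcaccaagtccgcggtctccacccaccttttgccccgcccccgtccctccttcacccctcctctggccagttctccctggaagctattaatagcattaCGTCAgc
Dusp1, chr17:26508473-26508622, minus strand: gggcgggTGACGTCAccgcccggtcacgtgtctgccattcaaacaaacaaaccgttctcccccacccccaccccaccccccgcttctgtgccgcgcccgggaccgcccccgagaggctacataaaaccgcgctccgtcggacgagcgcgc

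Promoters of 8 of the 10 members were matched, and Egr1 and Ier2 were not. In the 250 bases before the start, TGACG was found in 6 of the 8, against 17.77% of 32841 promoters. Members are counted per gene and the shares are per promoter, so the 2 are not alike. Egr2, with 5 promoters, is counted if any 1 of them holds the motif. TGACG was chosen after the sequences had been read, so its count is not read as enrichment. The full CRE TGACGTCA was found for Dusp1 only, against 1.547% of promoters, and TATAAA for Fos only, against 12.37%. The CArG box, which SRF binds, was found in this window for Egr2 only, against 1.468%. These are matches of letters on both strands, not measured binding.

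The table held 15168 cells, 8423 of them WT and 6745 Mff_Cre, with 651 to 2598 cells in a library. Median depth per cell was 26572 to 28553 UMIs in WT 1 to WT 4, 12720.5 in WT 5 and 9611.5 to 14895 in Mff_Cre, so WT 5 had the depth of the other genotype. The depth class and the genotype can therefore be told apart only through WT 5. The start of the cell name matched the annotated library for 10456 cells and went against it for 0. WT 4 and WT 5 have no such match, so their library and genotype rest on the annotation alone. Names of WT 5 cells start with Mf_, which no label explains. Mitochondrial UMIs were 2.38% to 3.15% of a library, and 33 cell barcodes were found in 2 libraries. Summed over all cells, Meis1 was at 13.7 to 26.5 CPM in WT and at 9.16 to 13.8 CPM in Mff_Cre, but a 3′ tag does not read the deleted exon and checks nothing. Summed megakaryocyte markers were at 12040 to 39567 CPM in Megakaryocytes and at most 155 CPM in any other type, and summed myeloid markers were highest in Myeloid cells, at 1860 to 3516 CPM. Hematopoietic markers were at 558 to 708 CPM in EHT (endothelial-to-hematopoietic transition) cells and at 0 to 10.3 CPM in arterial endothelium (aEC) and in the 4 clusters vEC_1 to vEC_4, which share endothelial markers. Markers of other cells were found too: erythroid markers reached 36609 CPM in Megakaryocytes (from 300 CPM), 1804 CPM in EMP and 2012 CPM in Myeloid cells, and smooth muscle and mesenchymal markers were at 121 to 2005 CPM in pre-HE and 66.9 to 190 CPM in EHT. Their part in the results was not tested. Levels below are UMIs summed per library and cell type and scaled to the sum of all UMIs, as CPM, for the 79 sums of at least 10 cells. Since the cells were clustered on the same RNA, differences between cell types are descriptions.

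Fos, the partner that gives AP-1 most of its activity, was a blood cell transcript with a wide range among libraries. In Myeloid cells it stood at 588, 565, 396, 258 and 113 CPM in WT 1 to WT 5, and at 146, 151 and 189 CPM in Mff_Cre 1 to Mff_Cre 3. WT 1 to WT 4 lay above all Mff_Cre libraries and WT 5 below them. In EMP (erythro-myeloid progenitors) Fos stood at 169, 180, 124, 58.4 and 31.1 CPM in WT and at 93.0, 102 and 111 CPM in Mff_Cre, with the groups overlapping. Megakaryocytes had 158, 79.6, 81.9 and 20.4 CPM in the 4 WT libraries with enough cells and 23.8, 16.4 and 33.2 CPM in Mff_Cre. Fos was lowest in aEC, at 1.36 to 6.40 CPM, vEC_1, at 0.992 to 8.49 CPM, and vEC_2, at 0.939 to 7.33 CPM. In single libraries vEC_3 reached 16.8 CPM, vEC_4 40.7 CPM and pre-HE 74.7 CPM. Within each library the Myeloid level exceeded the mean of the other types by 4.57 ± 0.42 on the log2(CPM + 1) scale (SD, n = 8), in 8 of 8 libraries.

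The order of mean Fos level was Myeloid, EMP, Megakaryocytes, pre-HE, vEC_4, EHT, vEC_3, vEC_2, aEC and vEC_1. Of neighbours in this order, Myeloid and EMP differed within libraries by more than their spread, by 1.38 ± 0.62 on the log2 scale (SD, n = 8), and EMP and Megakaryocytes barely so, by 1.08 ± 1.08 (n = 7). From Megakaryocytes down no neighbours differed beyond the spread. The pre-HE value rests on few cells: 2 of its libraries, of 11 and 15 cells, had no Fos UMI, which allows up to 19.4 and 26.5 CPM (3 counts; counting error only).

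Among the vEC clusters, vEC_4 stood apart in part of the libraries. Its Fos level was 35.6, 34.6, 40.7 and 16.6 CPM in WT 1 to WT 4, but 2.70 CPM in WT 5 and 1.86, 4.75 and 3.56 CPM in Mff_Cre. Against the mean of vEC_1 to vEC_3 of the same library the log2 difference was 1.79, 1.70, 3.16 and 1.22 in WT 1 to WT 4 and 0.76 in WT 5, and in Mff_Cre it was -0.13, 1.12 and 0.48. The 4 deeply sequenced libraries thus had the 4 largest differences. Pre-HE exceeded vEC_4 in 5 of 8 libraries, with a mean difference within the spread. Fosb behaved alike, with differences of 1.71, 1.15, 1.90 and 0.64 in WT 1 to WT 4, 0.21 in WT 5 and -0.59 to 0.31 in Mff_Cre. Summed myeloid markers in vEC_4 were at 2.40 to 33.2 CPM, against 1.98 to 35.5 CPM in vEC_3; their part in the result was not tested.

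Fosb, a second Fos family subunit, was likewise highest in blood cells. Megakaryocytes had 108, 35.5, 27.3 and 21.2 CPM in WT and 22.0, 28.6 and 24.6 CPM in Mff_Cre. Myeloid cells ranged from 19.9 to 67.8 CPM and EMP from 16.3 to 56.2 CPM. These 3 types did not differ from each other beyond the spread, while EMP exceeded pre-HE, the next type, by 2.97 ± 2.12 (SD, n = 8). In aEC, vEC_1 and vEC_2 no library passed 2.08 CPM.

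**Figure D1:**
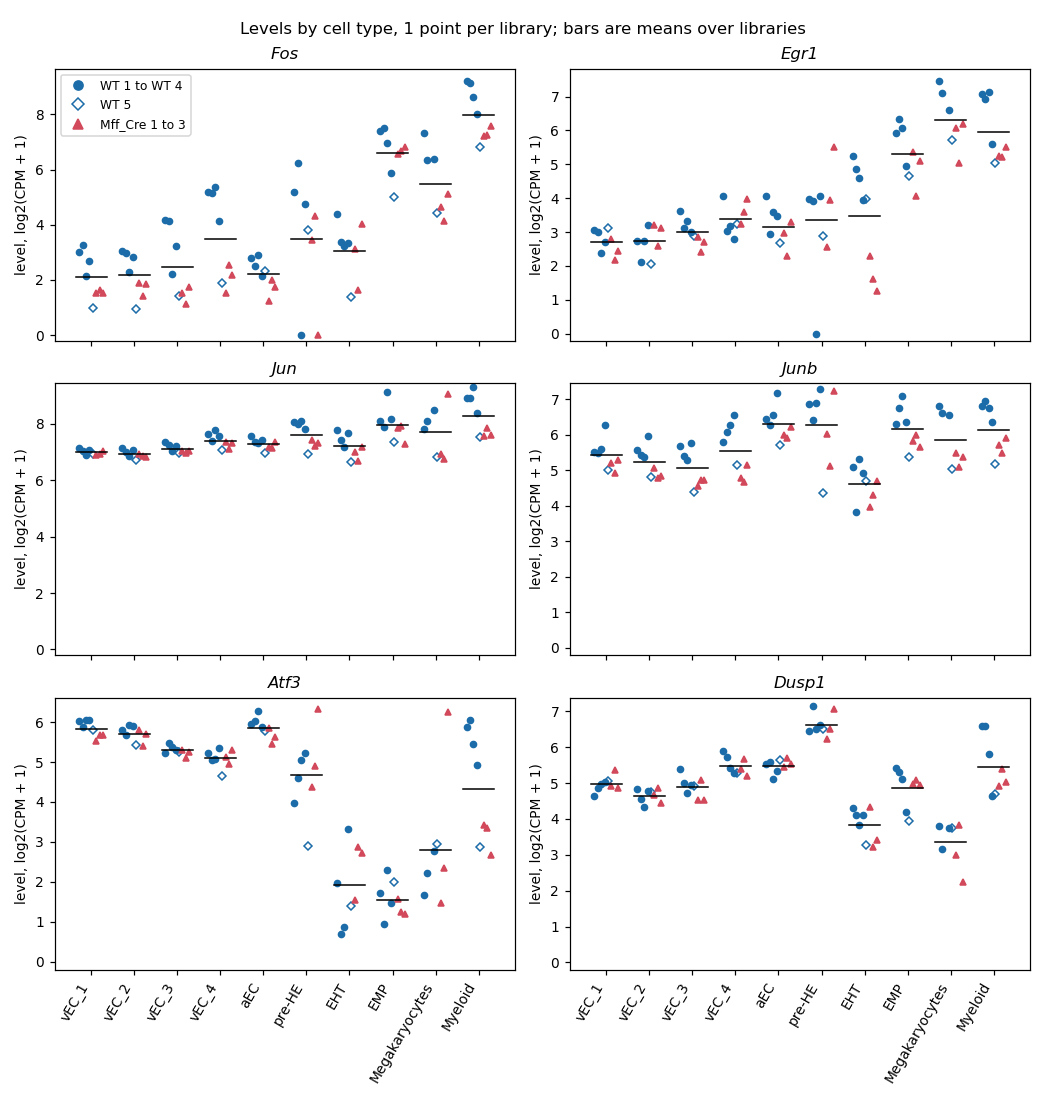
Levels of 6 members in the 10 cell types, as log2(CPM + 1); each point is 1 library (circles WT 1 to WT 4, open diamonds WT 5, triangles Mff_Cre) and each bar the mean over libraries. Fos and Egr1 are highest in the blood cell types at the right, Jun is present throughout, Atf3 is lowest in EHT and EMP, and Dusp1 is highest in pre-HE; WT 5 lies below most of the WT 1 to WT 4 points for Fos and Junb in most cell types.

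Jun, the main partner of Fos in AP-1, was present in every cell type, from 100.5 CPM in EHT of WT 5 to 635 CPM in Myeloid cells of WT 3. Myeloid cells had 488, 484, 635, 330.0 and 185 CPM in WT and 189, 230 and 193 CPM in Mff_Cre. WT 1 to WT 4 were again above Mff_Cre, and WT 5 was the lowest of all 8. In vEC_1 the range over the 8 libraries was only 117 to 141 CPM. Among the 9 pairs of neighbours in the order of Jun levels, vEC_3 and vEC_1 alone differed beyond the spread.

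One cell set the highest Jun level of Megakaryocytes. Mff_Cre 3 stood at 529 CPM against 107 and 122 CPM in the other Mff_Cre libraries, and 274 of its 430 Jun UMIs came from 1 of 38 cells. Without that cell, a comparison chosen after its value was seen, the level was 197 CPM. The same cell held 44 of the 61 Atf3 UMIs, and without it Atf3 fell from 75.1 to 21.5 CPM. It also held 36 of the 205 Jund UMIs. Its depth, 21660 UMIs, was above the median of 15650 UMIs of these cells.

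Junb, the subunit that often counters Jun, was high in pre-HE, aEC and the 3 blood cell types and low in EHT. In EHT it ranged from 13.2 to 38.4 CPM and lay below the mean of the other types in 8 of 8 libraries, by -1.18 ± 0.60 on the log2 scale (SD, n = 8). In aEC it stood at 86.6, 76.6, 93.3, 143 and 51.7 CPM in WT and at 62.5, 59.0 and 73.5 CPM in Mff_Cre. Against vEC_1 of the same library aEC was higher by 0.87 ± 0.10 in 8 of 8 libraries. Pre-HE, aEC, Myeloid, EMP and Megakaryocytes, the 5 highest types, did not differ from one to the next beyond the spread.

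Jund, the subunit that is made steadily rather than induced, was present in every type. Its mean was highest in pre-HE, at 221 to 424 CPM, and lowest in vEC_1, at 99.98 to 152 CPM. Neither rank held beyond the spread: Megakaryocytes were above pre-HE in 3 of 7 libraries, and vEC_2 and vEC_1 did not differ beyond it. The 424 CPM came from 15 cells of Mff_Cre 3. Its level in pre-HE was above that in aEC in 8 of 8 libraries, by 0.76 ± 0.23 on the log2 scale.

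Egr1, induced by ERK signalling, followed Fos among blood cells but peaked in Megakaryocytes, where it stood at 174, 136, 96.8 and 51.2 CPM in WT and 66.0, 31.7 and 72.6 CPM in Mff_Cre. Myeloid cells had 134, 120, 139, 47.7 and 31.9 CPM in WT and 36.7, 35.9 and 44.6 CPM in Mff_Cre. The order ran Megakaryocytes, Myeloid, EMP, EHT, and each step exceeded the spread within libraries, by 0.51 ± 0.41 (n = 7), 0.66 ± 0.44 (n = 8) and 1.83 ± 1.17 (n = 8). Below EHT no neighbours differed beyond the spread, and mean levels in aEC and the vEC clusters were 5.73 to 9.96 CPM. Egr2 was near absent: it had 102 UMIs in Myeloid cells, with levels of 2.67, 2.82, 3.91, 0.728 and 0.172 CPM in WT and 0.255 to 0.337 CPM in Mff_Cre.

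Ier2 ran the other way from Fos. It was highest in pre-HE and endothelium and lowest in Megakaryocytes, where it stood at 132, 133, 149 and 69.9 CPM in WT and 75.7, 74.7 and 62.8 CPM in Mff_Cre. Megakaryocytes lay below the mean of the other types in 7 of 7 libraries, by -0.96 ± 0.35. In vEC_1 the 8 libraries ranged from 209 to 242 CPM.

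Atf3 was higher in endothelium than in EHT and EMP. In aEC it stood at 61.1, 64.6, 76.8, 57.3 and 53.5 CPM in WT and 57.1, 43.1 and 48.4 CPM in Mff_Cre. EMP had 0.932 to 3.87 CPM and EHT 0.626 to 8.99 CPM. The aEC, vEC_1 and vEC_2 levels did not differ beyond the spread, whereas vEC_2 exceeded vEC_3 in 8 of 8 libraries, by 0.42 ± 0.17. Myeloid cells held it in part of the libraries, at 57.8, 65.6, 42.4 and 29.1 CPM in WT 1 to WT 4, but at 6.34 CPM in WT 5 and at 9.69, 9.09 and 5.31 CPM in Mff_Cre.

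Dusp1, the feedback phosphatase, peaked in pre-HE, with 86.6, 140, 90.8, 97.3 and 90.1 CPM in WT and 74.2, 90.9 and 133 CPM in Mff_Cre. The genotypes overlapped, and pre-HE exceeded the mean of the other types in 8 of 8 libraries, by 1.83 ± 0.41. EHT and Megakaryocytes were lowest, at 8.34 to 19.4 CPM and 3.69 to 13.3 CPM.

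Pairs of cell types were then compared within libraries; they are not steps of 1 lineage. A member was counted when it had at least 100 UMIs in the pair of types, moved by at least 1 on the log2(CPM + 1) scale on average and did so with the same sign in every library. The minimum is over both types, so a member can enter through the type where it is high; the counts are a description and are read as no result about the members. In aEC against vEC_1 0 of 8 members measured passed (all genes: 1.97% higher and 0.589% lower). In pre-HE against aEC 1 of 8 was higher, Dusp1 by 1.14 ± 0.33 (all genes: 5.33%). In EHT against pre-HE 0 of 8 were higher (all genes: 11.6%) and 2 of 8 were lower (all genes: 11.8%), namely Atf3 by -2.75 ± 1.03 and Dusp1 by -2.80 ± 0.61. In EMP against EHT 5 of 8 were higher (all genes: 3.48%): Fos by 3.54 ± 0.80, Fosb by 2.96 ± 1.25, Egr1 by 1.83 ± 1.17, Junb by 1.57 ± 0.69 and Dusp1 by 1.05 ± 0.57. Fosb had 43 UMIs in EHT and 654 in EMP. In the same pair 0 of 8 members were lower in EMP (all genes: 8.33%). Both types came from the same libraries and sort, and the part of handling in their difference was not tested. In Myeloid cells against EMP 0 of 10 were lower (all genes: 2.72%) and 2 of 10 were higher (all genes: 8.41%), Atf3 by 2.77 ± 1.44 and Fos by 1.38 ± 0.62. Atf3 had 47 UMIs in EMP and 2375 in Myeloid cells. In Megakaryocytes against EMP Egr1 was higher by 1.11 ± 0.36 (1 of 9 members; all genes: 10.8%) and Dusp1 lower by -1.48 ± 0.92 (1 of 9; all genes: 9.04%), in 7 of 7 libraries each.

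A level shared by a whole library was then separated from these cell type levels. For each member the mean of a cell type over libraries was taken off, and the remainders of a library were averaged over its cell types. For Fos these deviations were 1.27, 1.17, 0.03, 0.44 and -0.99 in WT 1 to WT 5 and -0.64, -0.63 and -0.64 in Mff_Cre on the log2 scale. The pre-HE sums with 0 Fos UMIs pulled WT 3 and Mff_Cre 3 down; without pre-HE they were at 0.46 and -0.33, and the others at 1.22, 0.99, 0.35, -1.14, -0.70 and -0.79 in the same order. WT 1 and WT 2 were above the mean in 10 of 10 cell types, WT 5 in 2 of 10 and Mff_Cre 1 in 1 of 10. The median deviation over all genes of at least 5 log2(CPM + 1) was between -0.09 and 0.05 in every library. The time from dissection to capture is not given per library in the sources used here, and neither its part nor that of depth, which was lower in WT 5 and Mff_Cre, was tested.

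WT 5 and the Mff_Cre libraries were also below the mean for other members. Junb deviated by 0.43, 0.27, 0.49, 0.66 and -0.69 in WT and by -0.40, -0.56 and -0.15 in Mff_Cre, and WT 1, WT 3 and WT 4 were above in every cell type measured. Jun in WT 5 was below its cell type mean in 10 of 10 types, with a mean of -0.45, while WT 1 and WT 4 were above in 10 of 10. Ier2 ranged from 0.27 in WT 1 to -0.32 in WT 5, Fosb from 1.02 in WT 2 to -0.70 in WT 5, and Egr1 from 0.79 in WT 1 to -0.65 in Mff_Cre 2. Jund did not share it: WT 5 was above in 8 of 10 types and WT 3 below in 8 of 9, with means of 0.08 and -0.28. Dusp1 and Atf3 means lay between -0.40 and 0.36. The highest, Atf3 in Mff_Cre 3, came from Megakaryocytes and was 0.02 without that type.

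**Figure D2:**
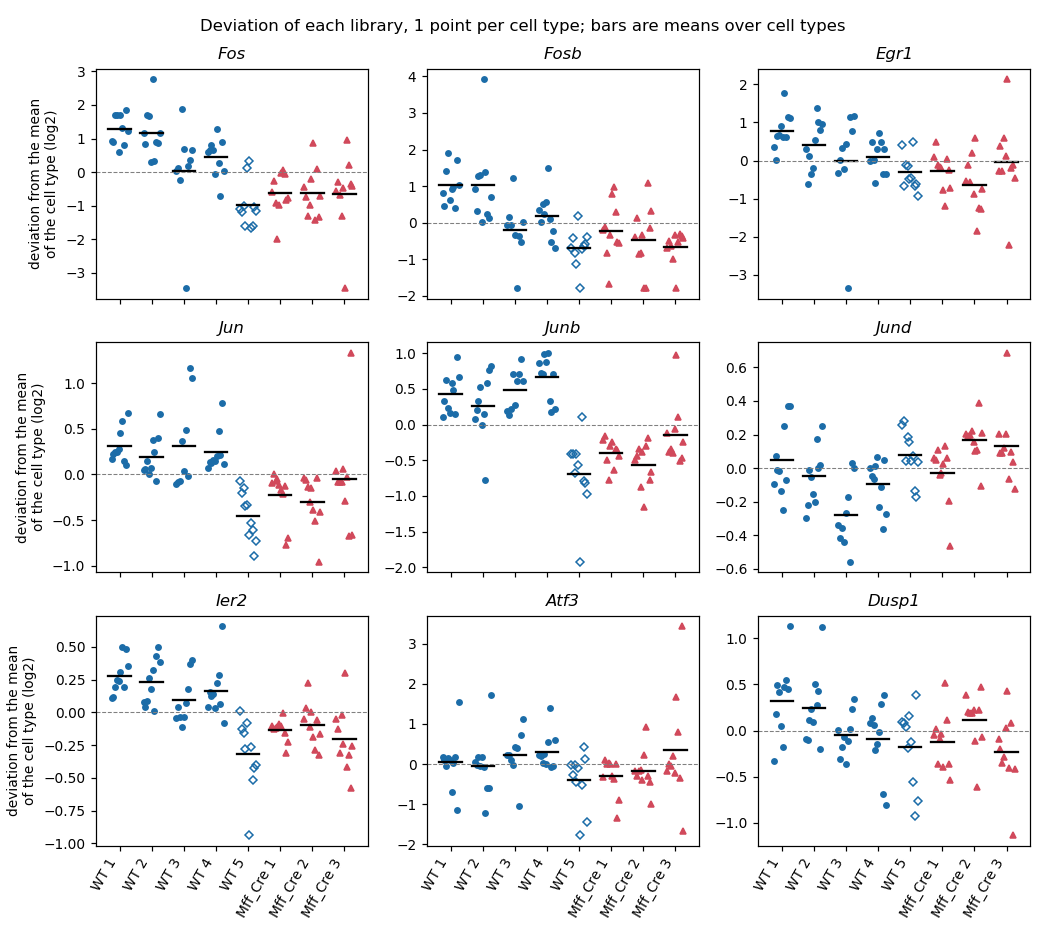
Deviation of each library from the mean of a cell type, in log2(CPM + 1) units, for 9 members; each point is 1 cell type and each bar the mean over cell types of that library. For Fos, Fosb, Egr1, Jun, Junb and Ier2 the bars of WT 1 and WT 2 lie above 0 and those of WT 5 and all Mff_Cre libraries below 0; for Jund the sign is not shared.

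Cell type took the larger share of variance for every member, also for those that moved with the library. In an additive model of library and cell type, library accounted for 13.0% of the variance of Fos and cell type for 74.6%. For Junb the shares were 35.8% and 46.5%, and for Jun 22.7% and 49.5%. The library share includes genotype, since each library has 1 genotype. For Fos 4.74% went to genotype and 8.29% to libraries within a genotype. For Junb these parts were 12.5% and 23.3%, and for Jun 6.41% and 16.3%. The smallest library shares were those of Atf3, at 2.44% against 80.2%, and Dusp1, at 4.08% against 82.1%. The medians over the 3964 genes of at least 5 log2(CPM + 1) were 11.3% and 66.3%. Of the 4 members that pass that level, Junb stood at percentile 89.4 of library share, Jun at 77.2, Ier2 at 66.4 and Jund at 45.2. The other 6 were below the level, where counting noise is larger, and have no such rank.

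**Figure D3:**
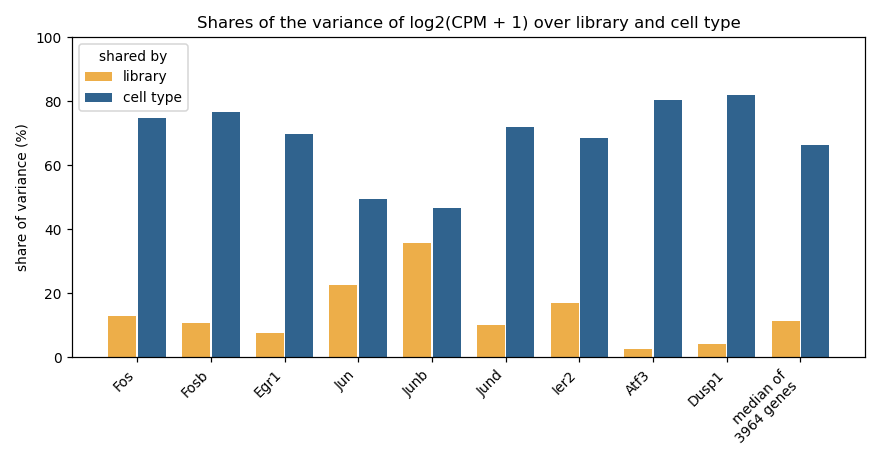
Share of the variance of log2(CPM + 1), in percent, that an additive model gave to library (orange bars) and to cell type (blue bars) for 9 members and as the median of 3964 genes. The cell type bar is the taller for each member, and the library bar is tallest for Junb and shortest for Atf3. Library shares include genotype.

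The genotypes were compared in each cell type with edgeR's quasi-likelihood test on the summed counts, adjusted over all genes of that cell type, with a threshold of 0.1. Over the 10 cell types, 2 of 80 member tests passed, against 0.931% of 91907 gene tests, and both were lower in Mff_Cre. The count moved with the libraries used: it was 25 of 80 without WT 5 (6.77% of all genes), 1 without any 1 of WT 1 to WT 4 (0.506% to 0.654%) and 0 without any 1 of the Mff_Cre libraries (0.106% to 0.363%). With depth class as a covariate it was 0 of 80 (0.0174%). Without WT 5, genotype and depth class cannot be told apart. Egr1 fell in EHT, where 1 of 7 members and 0.127% of genes passed (0.0692% lower). It stood at 37.1, 28.2, 23.4, 14.5 and 14.7 CPM in WT and at 3.87, 2.08 and 1.39 CPM in Mff_Cre, so that the groups did not overlap (4.42% of genes in EHT were lower without overlap). The log2 fold change was -3.05 ± 0.55 (SE; edgeR adjusted p = 0.055). Mff_Cre had 4, 1 and 1 Egr1 UMIs in EHT, so these levels carry wide counting error. WT 5, with the depth of Mff_Cre, held 27 UMIs in 118 cells. The call was lost without any 1 of the Mff_Cre libraries (edgeR adjusted p = 0.54, 0.25 and 0.23 without Mff_Cre 1, 2 and 3), at fold changes of -3.67, -2.96 and -2.79, and was kept without any 1 of the WT libraries (edgeR adjusted p = 0.0015 to 0.092). With WT 5 as the only WT library the fold change was -2.43 (edgeR adjusted p = 0.9997), and without doublets it was -2.89 (edgeR adjusted p = 0.11).

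Atf3 fell in Myeloid cells, where 1 of 10 members and 3.26% of genes passed (1.78% lower), with a log2 fold change of -2.30 ± 0.57 (SE; edgeR adjusted p = 0.079). WT 5, at 6.34 CPM, lay within the Mff_Cre range. With WT 5 as the only WT library the fold change turned to 0.40 (edgeR adjusted p = 0.76). The call was also lost without any 1 of the libraries other than WT 5 (edgeR adjusted p = 0.13 to 0.27), at fold changes of -2.44 to -2.01. The 10 members had a median log2 fold change of -0.89 in Myeloid cells, against -0.007 over all genes. With WT 5 as the only WT library the median turned to 0.37 over the 9 members tested, against 0.02 over all genes.

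In the main edgeR fits, with all libraries and filtered, unthinned counts, Fos did not pass in any of the 9 cell types tested. Its log2 fold change was -1.17 ± 0.42 in Myeloid cells (edgeR adjusted p = 0.22) and -2.92 ± 0.68 in vEC_4 (edgeR adjusted p = 0.18), and it was -0.08 ± 0.42 in EMP and -0.09 ± 0.60 in EHT. With WT 5 as the only WT library the Myeloid value was 0.60. It passed without WT 5 (-1.41; edgeR adjusted p = 0.0051), and with thinned cells (-1.33; edgeR adjusted p = 0.098). Jun in Myeloid cells stood at -0.99985 ± 0.32 (edgeR adjusted p = 0.17) and turned to 0.22 with WT 5 alone. In their types of highest level, Egr1 in Megakaryocytes, Fosb in Megakaryocytes, Egr2 in Myeloid cells, Atf3 in aEC, and Junb, Jund, Ier2 and Dusp1 in pre-HE also missed the threshold, with log2 fold changes between -2.60 for Egr2 and 0.49 for Jund. Egr2 in Myeloid cells passed with DESeq2 (-2.68; adjusted p = 0.039) and without WT 5 (-2.86; edgeR adjusted p = 0.012). Beyond Egr1 in EHT, the groups did not overlap for Ier2 and Atf3 in vEC_1 (all genes: 4.14%), Egr1 in vEC_3 (4.54%) and Fos in aEC (3.7%), all lower in Mff_Cre, nor for Jund, higher in vEC_3 (2.35%) and EMP (4.32%).

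In the other types 0 members passed the test in the main fits. There the share of all genes that passed and were lower in Mff_Cre was 2.06% in EMP, 0.0644% in Megakaryocytes and 0.136% in pre-HE, and the share that passed in either direction was 4.74% in EMP, 0.206% in Megakaryocytes, 0.489% in pre-HE, 0.0187% in vEC_2 and 0% in aEC, vEC_1, vEC_3 and vEC_4. The remaining counts of members without overlap were 0. For genes lower in Mff_Cre, the share of all genes without overlap was 4.77% in vEC_2, 3.65% in vEC_4, 2.55% in pre-HE, 8.09% in EMP, 5.12% in Megakaryocytes and 8.08% in Myeloid cells. For genes higher in Mff_Cre it was 2.94% in vEC_1, 2.4% in vEC_2, 1.6% in vEC_4, 2.48% in aEC, 2.04% in pre-HE, 2.68% in EHT, 4.11% in Megakaryocytes and 3.07% in Myeloid cells.

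**Figure D4:**
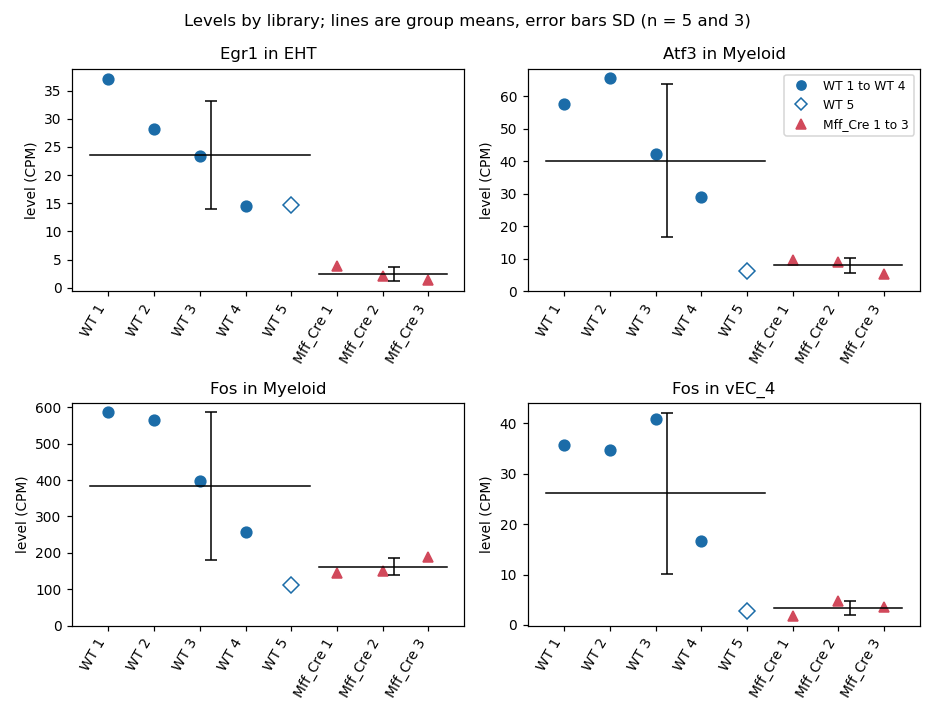
Levels in CPM of Egr1 in EHT, Atf3 and Fos in Myeloid cells and Fos in vEC_4, 1 point per library; horizontal lines are group means and error bars the SD (n = 5 WT, 3 Mff_Cre). WT 5 stays above Mff_Cre for Egr1 in EHT and lies at or below the Mff_Cre points for Fos in Myeloid cells.

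Whether the genotype difference varied among cell types was tested in 1 joint fit of the 79 sums with library as a block. The block takes out a level that a whole library shares. It does not take out a depth class difference that varies among cell types, which only WT 5 sets apart from genotype. The test passed for 3 of 9 members tested, against 4.54% of all genes. These were Fos (edgeR adjusted p = 3.34e-05), Atf3 (edgeR adjusted p = 0.0002) and Fosb (edgeR adjusted p = 0.0012). Fos differences ran from -2.92 in vEC_4 to near 0 in EMP and EHT, and Atf3 differences from -2.30 in Myeloid cells to 0.06 in vEC_4, in the separate fits. Those of Fosb ran from -3.52 ± 1.03 (SE) in vEC_4 to 0.67 ± 0.31 in EMP. In vEC_4 Fosb had 74 UMIs in WT and 2 in Mff_Cre. Atf3 was not tested alone in Megakaryocytes and pre-HE, where its mean was higher in Mff_Cre, at 27.0 against 4.56 CPM and 42.7 against 22.7 CPM, the first through 1 cell. The pre-HE mean of Mff_Cre rests on 19 UMIs, and its libraries, at 19.8 to 79.6 CPM, overlapped those of WT, at 6.44 to 36.4 CPM. Without the sum of Megakaryocytes of Mff_Cre 3, chosen after its values were seen, Fos, Fosb and Atf3 still passed (for Atf3, edgeR adjusted p = 0.0001). Jun, Junb, Jund, Ier2 and Dusp1 did not pass, with adjusted p of 0.50 to 0.87, and Egr1 missed narrowly (edgeR adjusted p = 0.11). The Fosb call was lost without Mff_Cre 2 (edgeR adjusted p = 0.17). With WT 5 as the only WT library, a setting added after the data were seen, Fos and Dusp1 passed while Atf3 and Fosb did not. The WT group is then 1 library, and the Fos pattern was another. In EMP Fos stood at 31.1 CPM in WT 5 against 93.0 to 111 CPM in Mff_Cre, and in vEC_4 at 2.70 against 1.86 to 4.75 CPM. Its fold change in Myeloid cells was 0.60 in the separate fit with WT 5 alone.

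Cells of the Myeloid type were then read singly, each thinned to 5000 UMIs so that depth does not set detection (of 2397 Myeloid cells, 5 were shallower and left out). A Fos UMI was found in 81.9%, 81.4%, 65.7%, 52.2% and 42.8% of Myeloid cells in WT and in 41.5%, 43.7% and 44.6% in Mff_Cre. Without thinning the mean over libraries was 83.4% rather than 56.7%. In vEC_1 and aEC, the types of lowest mean Fos level, the mean shares at the same 5000 UMIs were 1.59% and 1.87%. Egr1 was found in 42.9%, 38.3%, 28.6%, 22.5% and 9.0% of Myeloid cells in WT and in 11.8% to 14.9% in Mff_Cre. Atf3 was found in 22.7%, 25.1%, 28.6%, 14.6% and 4.0% in WT and in 2.2% to 4.7% in Mff_Cre. For all 3 genes WT 5 was the lowest of the WT libraries, and for Fos and Atf3 it lay within the Mff_Cre range.

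Within Myeloid cells Fos was compared with the other members. For the 8 pairs with Fos the median r over libraries was 0.13 to 0.25, and for the 28 pairs without Fos -0.01 to 0.20. Egr1 was found in 28.9% of cells with a Fos UMI and in 13.0% of the others on average, higher in 8 of 8 libraries. Jun was found in 73.8% against 58.5%, again in 8 of 8 libraries. Pearson's r between Fos and Egr1 over cells of 1 library had a median of 0.25 (0.15 to 0.51 over 8 libraries), and between Fos and Jun a median of 0.21 (0.11 to 0.33). No share over other genes was computed. Cells of a library share its handling and thinning, so these are descriptions.

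Other genes of the response were read from fixed lists. Of 31 further immediate early genes, 25 were tested in Myeloid cells and 2 were lower in Mff_Cre (all genes: 1.78%), Ier5 by -1.30 and Sgk1 by -1.13 on the log2 scale, with a list median of -0.57 (all genes -0.007), which turned to 0.28 (all genes 0.02) with WT 5 as the only WT library. Of 19 tested in EMP 2 were higher (all genes: 2.68%), Rhob by 0.74 and Zfp36l1 by 0.93, and Rhob was also higher in pre-HE, by 1.27 (all genes: 0.353%). Of 11 heat shock genes, all tested in Myeloid cells, Hspa1a (-2.05) and Hspa1b (-1.26) were lower in Mff_Cre (all genes: 1.78%). Hsph1 was lower in EMP (-0.52; all genes: 2.06%). Hspa1a stood at 120, 163, 411, 223 and 67.4 CPM in Myeloid cells of WT and at 53.6, 51.0 and 31.9 CPM in Mff_Cre. Hspa1b stood at 98.3, 109.1, 216.5, 133.1 and 93.1 CPM in WT and at 71.0, 53.3 and 32.0 CPM in Mff_Cre. For both genes WT 5 was the lowest of the WT libraries, and the part of depth was not tested. No gene of the other AP-1 subunits, the ERK feedback genes or the upstream factors and kinases passed in any type. Across cell types, the library deviation of the 9 further immediate early genes of sufficient level had a median of 0.13 in WT 1 and -0.17 in WT 5, and Btg2, Rhob and Sgk1 had the widest spread among libraries. The 8 heat shock genes of sufficient level had medians between -0.16 and 0.11, with WT 5 at 0.07.

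The genes most like Fos over the 79 sums were found by Pearson's r of log2(CPM + 1), as a description over sums that share libraries. Centred within libraries, which keeps the cell type pattern and what is left in single sums, they were Tspo (0.88), Snapc5 (0.86), Arhgdib (0.84), Mbnl1 (0.84) and BC005537 (0.84). Tspo also led for Egr1 (0.85) and Jun (0.71). Removal of cell type means keeps the level of a library and also what is left in single sums. That rest was 12.3% of the variance for Fos and 22.6% for Egr1, against library shares of 13.0% and 7.44%. By these deviations Fos was most like Hacd2 (0.76) and Prkar1a (0.73), Jun most like Btg2 (0.67) and Egr1 most like Nup54 (0.64). Among members the deviations of Fos were nearest to those of Fosb (0.77) and unlike those of Atf3 (0.01) and Jund (-0.23). The likeness is thus not of library levels alone.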

How the data were processed

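CD31+ cells were captured with a 3′ v3 droplet kit. Per the labels, the authors aligned reads with Cell Ranger 3.0.2 to mm10 and deposited raw UMI counts for 28014 genes and 6 antibody tags (not used here), with a table naming the library and cell type of each of 15168 cells that the authors assigned from clusters of these cells. The authors kept cells by genes detected and mitochondrial content; the deposited cells had at least 2001 genes and at most 9.98% mitochondrial UMIs. The 10 members and all gene lists were chosen with earlier results of these data known.

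Counts were summed per library and cell type (at least 10 cells; 79 sums, since Megakaryocytes of WT 3 had 5 cells) and given as CPM or log2(CPM + 1). Genotypes were compared with edgeR 4.0.16 in R 4.3.3 (TMM, filterByExpr, quasi-likelihood test, Benjamini-Hochberg over all genes, threshold 0.1), and the interaction with library as a block. P-values of the fits within a cell type measure the spread between pools of embryos. With library as a block, those of the interaction measure the scatter left among cell types within libraries. Each share of variance is what a factor removed after the other was fitted. Named pairs are those past the threshold and each member in its type of highest mean level. Cells were thinned to 5000 UMIs. Scrublet in scanpy 1.11.5 marked 118 cells (0.778%), which were kept in the main results. Replicate numbers are shared between genotypes but did not pair libraries. Alternatives were DESeq2 1.42.0, other normalization, filters, thinning, depth and left-out libraries. Intervals and limits cover counting error only. The fits were tested on simulated data.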

Additional observations from a re-analysis of the deposited data

Results flagged for a closer look

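In 5 of 75 groups of WT libraries 1 library lay far from the rest by Dixon's criterion, of which chance gives about 1 in 20. Fosb in Megakaryocytes was at 108 CPM in WT 1, against 35.5 CPM in the next library. Jund in pre-HE was at 270.4 CPM in WT 5, with the next at 233 CPM. Egr1 in vEC_4 was at 15.7 CPM in WT 1, with the next at 8.54 CPM. Ier2 in pre-HE was lowest in WT 5, at 142 CPM, where the next was at 285 CPM. Dusp1 in pre-HE was at 140.05 CPM in WT 2, with the next at 97.3 CPM.

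The genotype difference varied among cell types for Fos (edgeR adjusted p = 3.34e-05), Atf3 (edgeR adjusted p = 0.00020) and Fosb (edgeR adjusted p = 0.0012).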

How the results depend on the processing

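The 2 member calls between genotypes became 4 with DESeq2 (1489 genes in place of 856), 14 without a filter on low counts (2814), 0 at a threshold of 0.05 (373), 4 with thinned cells (423), 1 without doublets, 0 with depth class as a covariate (16) and 1 with WT 5 as the only WT library (322). They were 0 to 25 (101 to 6152 genes) with 1 library left out, the highest without WT 5. The calls of a setting need not include the main 2. Atf3 in Myeloid cells passed with DESeq2 and with thinned cells. Egr1 in EHT had no adjusted p with DESeq2 (log2 fold change -3.10) and was not tested with thinned cells. With WT 5 as the only WT library the call was in EMP, not in EHT or Myeloid cells. The log2 fold changes there were -2.43 for Egr1 in EHT and 0.40 for Atf3 in Myeloid cells. With DESeq2 1 of 9 members passed in vEC_3 (87 of 10744 genes) and 1 of 9 in vEC_4 (23 of 9691). Without the filter on low counts 3 of 10 passed in vEC_3 (293 of 17842 genes) and 3 of 10 in vEC_4 (202 of 16853). Without it, 5 of 10 also passed in Megakaryocytes (273 of 15736) and 1 of 10 in vEC_1 (297 of 17546). The replicate block, which keeps libraries 1 to 3, gave 37 member calls and 8435 genes, and the same libraries without a block, added after the data were seen, gave 26 and 4928. Same-numbered libraries deviated together in all 3 pairs in 2 of 9 cell types only, EMP and vEC_4, so the numbers were not taken as pairs; every library correlated best with its own number in 5 of the 9.

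Fold changes that turned positive with depth class as a covariate, and with WT 5 as the only WT library, were Atf3 in Myeloid (0.37 and 0.40), Fos in Myeloid (0.58 and 0.60), Jun in Myeloid (0.19 and 0.22), Fosb in Megakaryocytes (0.30 and 0.30), Egr1 in Megakaryocytes (0.21 and 0.21), Junb in pre-HE (1.92 and 1.91), Ier2 in pre-HE (0.96 and 0.96) and Dusp1 in pre-HE (0.095 and 0.10), and with the covariate Egr2 in Myeloid (0.78). Ier2 in pre-HE ranged from -0.25 to 0.036 and Dusp1 in pre-HE from -0.26 to 0.16 with 1 library left out. The cause was not tested.

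The interaction called 220 genes with thinned cells, 222 with WT 5 as the only WT library, and 138 to 729 genes and 2 to 5 members with 1 library left out. With 1 library left out the library share of Dusp1 ranged from 2.70% to 4.404%, and the cell type share from 75.3% to 82.1% for Fosb, 69.9% to 77.6% for Jund and 78.9% to 87.5% for Atf3. With thinned cells the library share was 4.55% for Jund, 4.42% for Atf3 and 6.41% for Dusp1 (5.53% with sums of at least 20 cells), and the cell type share 69.3% for Fos, 49.75% for Ier2, 69.5% for Atf3 and 74.2% for Dusp1. With sums of at least 20 cells the cell type share was 81.9% for Fos, 83.5% for Fosb, 77.3% for Egr1 and 76.3% for Dusp1. Shares of Myeloid cells were 83.4% for Fos, 93.5% for Jun and 58.0% for Egr1 without thinning, and 35.6%, 41.2% and 8.11% at 2 UMIs or more. Few cells in pre-HE and the low depth of WT 5 and Mff_Cre limit low levels.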
